A study of Mus musculus with 6 samples.

Results

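The 9 sarcomere genes described here are Ttn, Nebl, Mybpc3, Myom1, Myom2, Actn2, Ldb3, Myoz2 and Tcap. They were chosen by name, as genes of the giant filaments, the M-band and the Z-disc, and the rows of the count table whose Ensembl identifiers map to these symbols were taken. All 9 were found among the 38293 genes of the table, and all 9 passed the filter on low counts that kept 14746 genes for testing. RNA was sequenced from the hearts of 3 WT and 3 Zeb2 cKO mice (strain C57BL/6J, backcrossed), 14 days after permanent occlusion of the left anterior descending coronary artery, so that every heart of both groups was infarcted (MI). The Zeb2 cKO mice carried floxed Zeb2 alleles (Zeb2 fl/fl) and a Cre recombinase driven by the murine Myh6 promoter, which is active in cardiomyocytes, and the methods describe the WT controls as Zeb2 fl/fl without this Cre. The mice were adults of 8 to 10 weeks at the time of use. The labels place the tissue in the border region of the infarct and the methods place it in the remote zone, and the counts alone did not settle which was sampled. The comparison of these groups asks how the infarcted heart differs when cardiomyocytes lack ZEB2, a transcription factor that binds E-box motifs.

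The sarcomere is the contractile unit of striated muscle and runs from a Z-disc to the next Z-disc, where thin actin filaments of neighbouring sarcomeres are anchored and crosslinked. Thick myosin filaments lie at its centre and are held together at the M-band, and titin, the product of Ttn, reaches from the Z-disc to the M-band as a molecular spring. Loss or mutation of several of these proteins is a known cause of dilated or hypertrophic cardiomyopathy, and after MI the surviving myocardium carries the load of the lost muscle.

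Of the 9 genes, 7 matched an entry among the RefSeq promoter sequences (GRCm38.p6), with 11 annotated starts in all. Myom2 and Tcap had no entry. The 250 bases before each start were searched on both strands for the letters CACCTG, the E-box form bound by ZEB proteins (CAGGTG on the other strand), for CATTCC, the MCAT motif of TEAD factors, which reads GGAATG on the other strand, for GATAA, the motif of GATA factors, for TATAAA, the core of the TATA box, and for the MEF2 box and the CArG box of serum response factor. The E-box lay before 1 start each of Ttn, Mybpc3 and Nebl, that is before 3 of the 11 starts, and 17.2% of all 32851 mouse starts held it. The MEF2 box lay before the starts of Ttn, Mybpc3 and Myoz2, again 3 of the 11, against 0.508% of all starts. The CArG box was found before starts of Myom1, Nebl and Ldb3, at 4 of the 11 starts against 1.47% of all, where both Ldb3 starts share a single box because their windows overlap. MCAT was found before 1 start of Nebl (12.6% of all starts), and GATA before starts of Nebl, Mybpc3, Myom1 and Myoz2 (22.6%), at 5 starts in all. TATAAA was found before none of the 11 (12.4%), and no motif searched was found before the Actn2 start. The 3 promoters that hold a MEF2 box are given 5′ to 3′ on the gene's strand, ending at the base before the start, since they belong to the giant Ttn, to Mybpc3, which fell furthest in the library that stood apart, and to Myoz2, which varied least among the 6 libraries. Capitals mark every motif found.
Ttn (chr2:76982548-76982797, minus strand): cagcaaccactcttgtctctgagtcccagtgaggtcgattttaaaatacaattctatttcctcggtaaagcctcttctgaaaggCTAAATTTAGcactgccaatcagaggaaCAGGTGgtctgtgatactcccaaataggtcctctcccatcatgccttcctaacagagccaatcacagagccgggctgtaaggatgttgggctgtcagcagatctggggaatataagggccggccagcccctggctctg
Mybpc3 (chr2:91117894-91118143, plus strand): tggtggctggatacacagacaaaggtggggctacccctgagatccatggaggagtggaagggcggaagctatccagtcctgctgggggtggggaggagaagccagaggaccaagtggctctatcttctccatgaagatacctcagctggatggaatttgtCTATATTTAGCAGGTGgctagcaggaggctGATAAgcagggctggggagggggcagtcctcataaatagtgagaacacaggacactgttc
Myoz2 (chr3:123034988-123035237, minus strand): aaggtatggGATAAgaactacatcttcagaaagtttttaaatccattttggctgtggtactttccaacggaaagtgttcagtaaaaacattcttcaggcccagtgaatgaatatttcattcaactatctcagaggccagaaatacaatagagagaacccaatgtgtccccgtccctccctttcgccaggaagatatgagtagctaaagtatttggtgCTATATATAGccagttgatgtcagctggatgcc
In Ttn the MEF2 box began 166 bases and the E-box 138 bases before the start. In Mybpc3 the E-box followed the MEF2 box with no base between, at 90 and 80 bases before the start, and the GATA motif began at 60. In Myoz2 the MEF2 box began 33 bases before the start and the GATA motif at 241. These letters describe the sequence, and binding of any factor was not measured here.

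Total counts were between 37.3 and 51.1 M per library, of which 60.5 to 67.0% came from the 37 mitochondrially encoded genes, which left 14.3 to 19.0 M counts for all other genes. Zeb2 itself was at 61.3, 116 and 71.9 CPM in WT replicates 1, 2 and 3, against 59.6, 72.6 and 66.5 CPM in Zeb2 cKO replicates 1, 2 and 3 (log2 fold change -0.33, adjusted p = 0.957 by edgeR, and -0.0058 without WT replicate 2), where CPM are counts scaled to a common normalised library size. The groups overlapped, the difference was near 0 without the highest library, and the count covers the whole gene in all cells of the tissue, so it does not check the deletion in cardiomyocytes. WT replicate 2 stood apart from the other libraries. The summed level of 12 fibroblast markers was 10789 CPM there and 1853 to 2617 CPM in the other 5 libraries, that of 12 macrophage markers was 998 CPM against 241 to 334 CPM, and that of 20 cardiomyocyte markers outside the sarcomere was 7283 CPM against 11388 to 14038 CPM. All 20 cardiomyocyte markers were lowest in this library. Differences between the genotypes are therefore also given without it. Of the skeletal muscle markers, Actn3 and Tnnc2 had at most 3 counts and Myh1, Myh2 and Myh4 at most 6. Myoz1 had 3 to 13, Mylpf 4 to 17, Tnni2 6 to 19, Tnnt3 9 to 21 and Mybpc2, the highest of the list, 371 to 1849. Of the adipocyte markers, Lep had at most 1 count, Adipoq 2 to 25, Cfd 9 to 83 and Cidea, the highest of the list, 226 to 704. None of the marker genes was at 0 in every library.

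No difference between Zeb2 cKO and WT hearts passed the test for any of the 9 genes. Of all tested genes 0% passed an adjusted p of 0.05, and 0 of the 9 did (quasi-likelihood test of edgeR, Benjamini-Hochberg adjustment over all tested genes, adjusted p from 0.957 to 0.993). At an unadjusted p under 0.05 the counts were 0 of 9 beside 1.9% of all tested genes (280), and DESeq2, run as an alternative, called 1 gene of the table, the transporter gene Slc46a2 with 2 to 5 counts in WT and 13 to 182 in Zeb2 cKO libraries, and 0 of the 9. The groups overlapped in CPM for all 9 genes, whereas 6.36% of all tested genes did not overlap. The log2 fold changes (Zeb2 cKO over WT) lay between -0.04 and 0.25 with a median of 0.12, and 8 of 9 were above 0, beside a median of -0.01 and a share of 48.6% above 0 over all tested genes. Without WT replicate 2 they lay between -0.29 and -0.06 with a median of -0.11, and all 9 were below 0, beside a median of 0.0025 over all genes. The 95% interval included 0 for all 9 genes in both fits. For 8 of the 9 genes the sign of the difference thus turned with WT replicate 2, and neither sign passed a test.

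**Figure D1:**
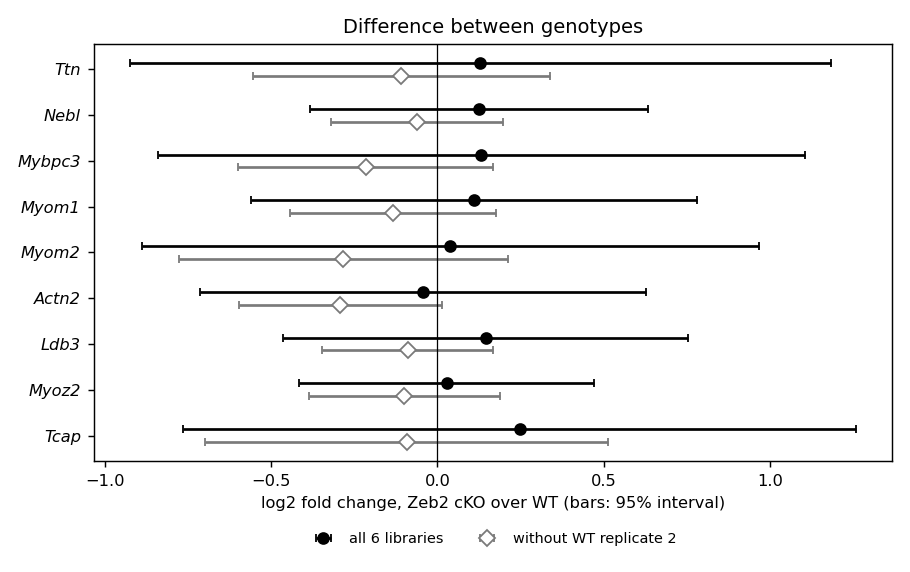
Log2 fold change of each gene in Zeb2 cKO over WT hearts, from all 6 libraries (filled circles) and without WT replicate 2 (open diamonds), with bars for the 95% interval of the fit. With all libraries 8 of 9 circles lie above 0, without WT replicate 2 all 9 diamonds lie below 0, and every bar crosses 0.

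Titin is the giant protein that sets the passive stiffness of cardiomyocytes and serves as a ruler for sarcomere assembly. Its gene Ttn (ENSMUSG00000051747) spans 76703980 to 76982547 of chromosome 2 (GRCm38, minus strand), with 345 merged exons that cover 116825 bases. Ttn was at 43302, 22884 and 41324 CPM in WT replicates 1, 2 and 3 (mean 35837, SD 11261, n = 3), against 44093, 37158 and 36302 CPM in Zeb2 cKO replicates 1, 2 and 3 (mean 39185, SD 4273, n = 3). Means and SDs of the other genes follow in the same order, with n = 3 in each group. WT replicate 2 was the lowest library and the 5 others lay within 1.21-fold of each other. The log2 fold change was 0.13 (95% interval -0.92 to 1.18, adjusted p = 0.979, edgeR), and without WT replicate 2 it was -0.11 (-0.55 to 0.34). Reads of this single gene made up 6.83 to 11.9% of all counts outside the mitochondrially encoded genes, with a mean of 9.77% ± 2.55 (SD, n = 3) in WT and 10.8% ± 0.93 (SD, n = 3) in the knockout group. The lowest share was that of WT replicate 2, and the 95% Wilson interval of a library's share was at most 0.0164 percentage points to either side, which covers counting error only. All 9 genes together took 7.57 to 13.2%. An antisense gene, Gm13938, shares 453 exonic bases with Ttn but held only 2 to 6 counts per library.

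Nebulette, encoded by Nebl, is the cardiac relative of nebulin and binds thin filaments close to the Z-disc. Nebl (ENSMUSG00000053702, chromosome 2, minus strand, 17343909 to 17731464) was at 259, 171 and 284 CPM in the WT replicates (238 ± 59.0) against 278, 255 and 245 CPM in Zeb2 cKO hearts (259 ± 16.9). Apart from WT replicate 2 the libraries differed by at most 1.16-fold, the narrowest range of the 9 genes. The log2 fold change of Nebl was 0.12 (-0.38 to 0.63, adjusted p = 0.957, edgeR) with all libraries and -0.06 without that library. Of its longest transcript, 1.25% matched other transcripts nearly perfectly.

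Cardiac myosin-binding protein C, encoded by Mybpc3, sits on the thick filament and tunes how myosin heads engage actin. Mybpc3 (ENSMUSG00000002100, chromosome 2, plus strand, 91118144 to 91136516) was at 2115, 671 and 1660.4 CPM in the WT replicates (1482 ± 738) against 1688, 1763 and 1418 CPM in Zeb2 cKO hearts (1623 ± 181). The lowest of these 6 values was 35.6% of the mean of the other WT replicates, the deepest drop in WT replicate 2 among the 9 genes. The log2 fold change was 0.13 (-0.84 to 1.10, adjusted p = 0.974, edgeR) and without that library -0.22 (-0.60 to 0.17). Myh6, the thick-filament gene whose promoter drives the Cre, was likewise highest in WT replicate 1 and lowest in WT replicate 2, with 8979, 2767 and 6733 CPM in WT and 7152, 7073 and 6961 CPM in Zeb2 cKO hearts (log2 fold change 0.20, -0.15 without WT replicate 2).

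The M-band genes Myom1 and Myom2 encode myomesins, which crosslink thick filaments and bind titin. Myom1 (ENSMUSG00000024049, chromosome 17, plus strand, 71002633 to 71126856) was at 783, 433 and 861 CPM in WT (692 ± 228) and at 728, 681 and 833 CPM in Zeb2 cKO hearts (748 ± 77.7), with a log2 fold change of 0.11 (adjusted p = 0.966, edgeR). Myom2 (ENSMUSG00000031461, chromosome 8, plus strand, 15057653 to 15133541) was at 884, 308 and 669.6 CPM in WT (621 ± 291) and at 535, 811 and 567 CPM in Zeb2 cKO hearts (637 ± 151), with a log2 fold change of 0.04 (adjusted p = 0.993, edgeR). For Myom2, WT replicate 1 and Zeb2 cKO replicate 2 were high and the rest lower, so that its range over the 5 libraries other than WT replicate 2 was 1.65-fold against 1.26-fold for Myom1. The ratio of Myom2 to Myom1 counts was 1.13, 0.712 and 0.778 in WT and 0.735, 1.19 and 0.680 in Zeb2 cKO hearts. In both groups a single heart was thus above 1 and the other hearts below. The log2 ratio differed by -0.02 between the groups (exact permutation test, two-sided p = 0.9, n = 3 each, where 0.1 is the smallest p that 3 against 3 allow). Myom1 shares 207 exonic bases, 1.98% of its exons, with Myl12a on the opposite strand.

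The Z-disc is represented by Actn2, Ldb3, Myoz2 and Tcap. Actn2 (ENSMUSG00000052374, chromosome 13, minus strand, 12269426 to 12340760) encodes alpha-actinin, the main crosslinker of thin filaments. It was at 605, 325 and 649 CPM in WT (527 ± 176) and at 481, 475 and 577 CPM in Zeb2 cKO hearts (511 ± 57.1). Actn2 was the single gene of the 9 with a log2 fold change below 0 with all libraries (-0.04, adjusted p = 0.990, edgeR). Without WT replicate 2 the Zeb2 cKO libraries all lay below both remaining WT libraries and its difference was -0.29 (-0.60 to 0.01, unadjusted p = 0.058, adjusted p = 1.000 in edgeR), the value furthest from 0 among the 9 genes. With 2 libraries against 3, groups separated in this direction in 7.46% of all tested genes, so the separation of 1 gene of 9 is not a result about Actn2. Of its longest transcript, 2.85% matched other transcripts nearly perfectly.

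Ldb3 encodes cypher, also called ZASP, a PDZ-LIM protein that binds alpha-actinin and stabilises the Z-disc. Ldb3 (ENSMUSG00000021798, chromosome 14, minus strand, 34526603 to 34588682) was at 395, 211 and 376 CPM in WT (327 ± 101) and at 379, 338 and 368 CPM in Zeb2 cKO hearts (362 ± 21.4). Its log2 fold change was 0.14 (adjusted p = 0.957, edgeR) and -0.09 without WT replicate 2, with a range of 1.17-fold over the 5 other libraries. Myoz2 encodes calsarcin, a Z-disc protein that binds and restrains calcineurin. Myoz2 (ENSMUSG00000028116, chromosome 3, minus strand, 123006206 to 123035015) was at 421, 308 and 409 CPM in WT (379 ± 62.2) and at 403, 414 and 342 CPM in Zeb2 cKO hearts (386 ± 38.6). Here WT replicate 2 was only slightly below the next library, Zeb2 cKO replicate 3, at 89.9% of its level, and the log2 fold change was 0.03 (adjusted p = 0.990, edgeR).

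Tcap encodes telethonin, the small cap that ties titin ends together at the Z-disc. Tcap (ENSMUSG00000007877, chromosome 11, plus strand, 98383811 to 98384953, 2 exons) was at 259.7, 76.3 and 155 CPM in WT (164 ± 92.0) and at 228, 211 and 144 CPM in Zeb2 cKO hearts (194 ± 44.4). Replicate 3 of both genotypes was low besides WT replicate 2, so that Tcap had the widest range of the 9 genes over the other 5 libraries, 1.80-fold. Its log2 fold change of 0.25 was the highest of the 9, with an interval from -0.76 to 1.26 (adjusted p = 0.957, edgeR), and it was -0.09 (-0.70 to 0.51) without WT replicate 2. The SD of CPM was larger in WT than in Zeb2 cKO hearts for all 9 genes, and for all 9 the group means lay closer together than the larger SD.

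**Figure D2:**
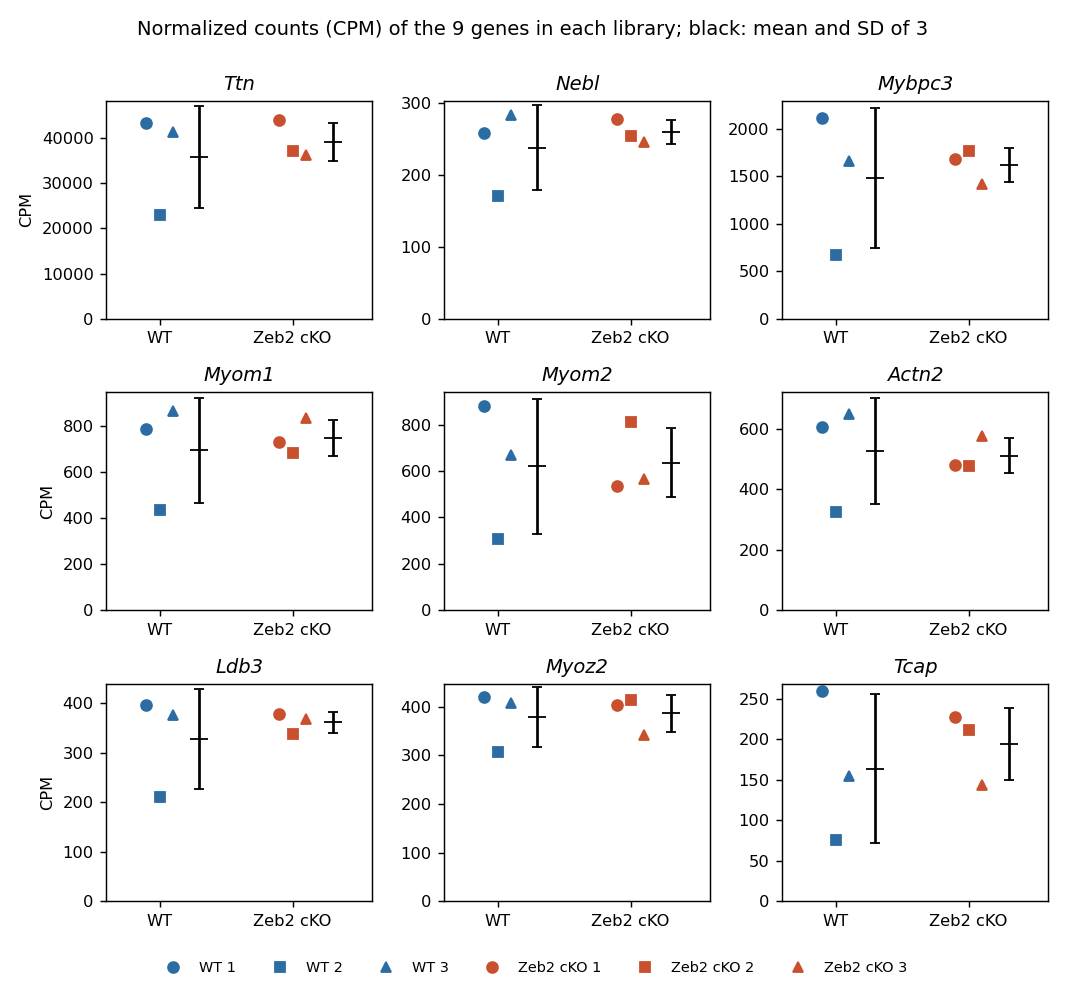
CPM of each gene (y axis from 0) in the 3 WT and 3 Zeb2 cKO libraries, with the mean and SD of each group in black. WT replicate 2 (blue square) is the lowest of 6 in all 9 panels, and the other libraries of the groups overlap except for Actn2.

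Levels of different genes were compared per length, as TPM over genes that are not mitochondrially encoded, with the length of all annotated exons of a gene. On this scale Mybpc3 was the most abundant of the 9 transcripts, with a mean of 3619 TPM over 6 libraries (3389 ± 1806 in WT and 3848 ± 359.6 in Zeb2 cKO hearts), followed by Ttn with 3104 TPM (2900.4 ± 1033 and 3308 ± 254). Tcap followed with 1831 TPM, Actn2 with 1323, Myoz2 with 1078, Myom2 with 689, Myom1 with 667, Ldb3 with 546 and Nebl with 158. Mybpc3 and Ttn ranked 21 and 28 among the genes given a TPM value, which leaves out mitochondrially encoded genes and those without a length, and Nebl ranked 753. All 9 ranks per length were the same without WT replicate 2. By CPM, which is not divided by length, the order was Ttn, Mybpc3, Myom1, Myom2, Actn2, Myoz2, Ldb3, Nebl and Tcap. Ttn has 116.8 kb of exons and passed from the first place by reads to the second per length, whereas Tcap, with 0.948 kb, moved from the last place to the third.

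Neighbours in the order per length were compared within each library. Ttn was above Tcap (ratio 1.35 to 2.43), Myoz2 above Myom2, Myom1 above Ldb3 and Ldb3 above Nebl (3.07 to 3.81) in 6 of 6 libraries. Mybpc3 was above Ttn, and Actn2 above Myoz2, in 5 of 6, with WT replicate 2 as the exception in both. Tcap was above Actn2 in only 3 of 6 libraries and Myom2 above Myom1 in 2 of 6, so these neighbours did not differ beyond their spread. The order depends on which length a gene is given. With the length of the longest transcript 7 of 9 ranks were kept and the myomesins changed places. With the longest coding length only 3 of 9 were kept, and Myoz2 (1872 TPM) came first, ahead of Mybpc3 (1564), Tcap (1377) and Ttn (1373 TPM). On that length Myom1 was above Ldb3, and Actn2 above Myoz2, in 0 of 6 libraries, and Ttn above Tcap in 3 of 6. Myoz2 stayed above Myom2, and Ldb3 above Nebl, in 6 of 6.

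**Figure D3:**
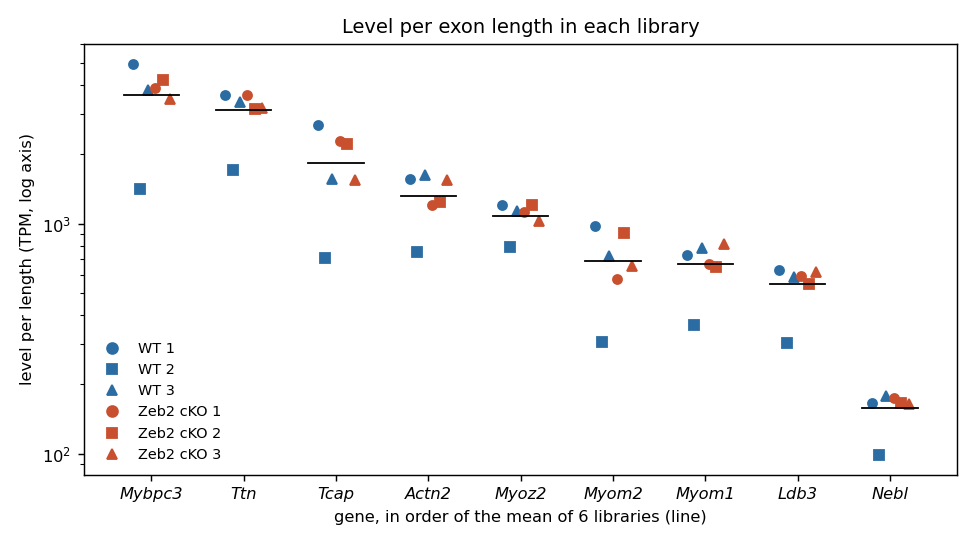
Level per exon length (TPM, log axis) of the 9 genes in each library, ordered by the mean of 6 libraries (black line). Mybpc3 and Ttn lead and Nebl is lowest, and WT replicate 2 (blue square) is below the other libraries for every gene.

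The 9 genes varied together over the libraries. WT replicate 2 was the lowest of 6 libraries for 9 of 9 genes, beside 34.6% of all tested genes, and the mean log2 CPM of the 9 was 0.75 below their mean over 6 libraries there and 0.01 to 0.32 above it in the others. In bulk tissue, fewer cardiomyocytes and less of these RNAs per cardiomyocyte cannot be told apart. The size of the drop differed between genes. In percent of the mean of WT replicates 1 and 3, WT replicate 2 held 35.6% of Mybpc3, 36.8% of Tcap and 39.7% of Myom2, 51.8% of Actn2, 52.7% of Myom1, 54.1% of Ttn and 54.6% of Ldb3, and 63.2% of Nebl and 74.2% of Myoz2. The part of the high fibroblast and macrophage markers of this library in these values was not tested.

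Pearson's r of each gene with the mean of the other 8, over 6 libraries and on the log2 CPM scale, was 0.85 (Actn2) to 0.99 (Mybpc3). The closest pairs were Ttn with Ldb3 (r = 0.975), Ttn with Nebl (0.973) and Myom1 with Actn2 (0.970), and the loosest was Actn2 with Tcap (0.642). These are descriptions over 6 points that share WT replicate 2 as their extreme. The 5 genes outside the 9 whose pattern was most like the mean of the 9 were Ogdh, a subunit of the oxoglutarate dehydrogenase complex of the citric acid cycle (r = 0.9997), Esrra, a nuclear receptor (0.999), Aars2 and Mrpl4, which serve mitochondrial translation (0.9988 and 0.9986), and Dag1, which encodes dystroglycan (0.9985). Ogdh was at 716, 352 and 653 CPM in WT and at 639, 641 and 584 CPM in Zeb2 cKO hearts. Such likeness was common, since 11.2% of the 14737 other tested genes had an r above 0.9.

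The level of each gene was next set against the mean log2 CPM of the 20 cardiomyocyte markers outside the sarcomere in the same library. On this scale the groups overlapped for all 9 genes, and 2.78% of all tested genes did not overlap on it. The exact permutation test (two-sided, n = 3 each) has a smallest possible p of 0.1, so it could not pass 0.05 for any gene. Its p ran from 0.2 for Myoz2 to 0.9 for Mybpc3, or 0.79 to 0.9 after Benjamini-Hochberg adjustment over the 9. With the mean of the markers as reference the largest difference was that of Actn2, -0.22 on the log2 scale, with relative levels of 1.30, 1.38 and 1.54 in WT and 1.00, 1.03 and 1.52 in Zeb2 cKO hearts, where Zeb2 cKO replicate 3 sat among the WT libraries. Myoz2 differed by -0.20 with all libraries and by -0.045 without WT replicate 2, and Actn2 by -0.13 at the least and -0.39 at the most with 1 library left out. With the median of the markers as reference instead of the mean, Actn2 differed by -0.047, Myoz2 by -0.026 and Mybpc3 by 0.22. The largest difference was then that of Tcap, 0.33.

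WT replicate 2 was no longer low for most genes on this scale. Relative to the markers, its level of Ttn, Ldb3, Myom1 and Actn2 was 0.03 to 0.10 (log2) above the mean of the other 5 libraries. Myoz2 was 0.50 and Nebl 0.25 above that mean, and both were highest of 6 in this library. Mybpc3 and Tcap were 0.48 below it, and both were lowest of 6, and Myom2 was 0.27 below it with Zeb2 cKO replicate 1 lower still. Relative to the markers, the Z-disc genes Myoz2 and Tcap thus moved in opposite directions in this heart, while the CPM of both was lowest there. These are values of 1 library and have no replicate.

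**Figure D4:**
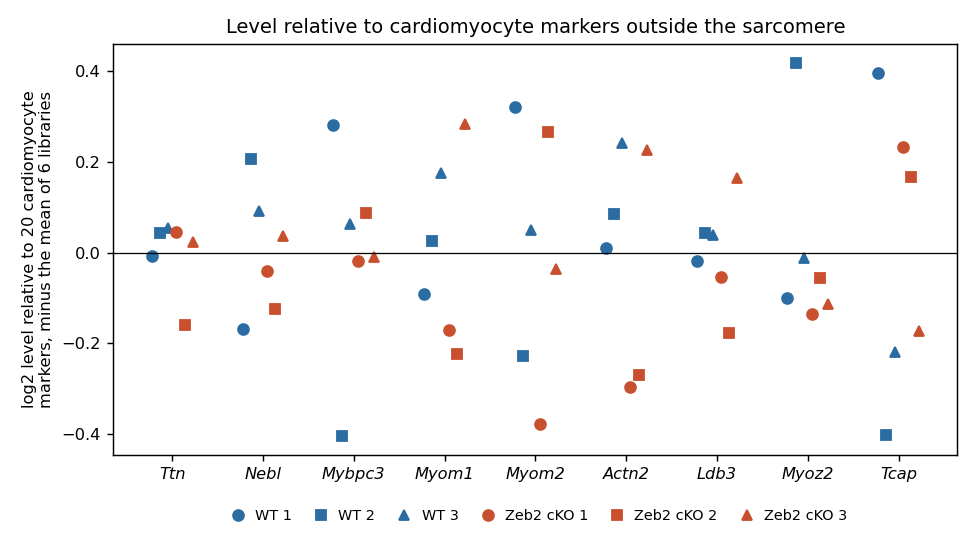
Log2 level of each gene relative to the mean of 20 cardiomyocyte markers in the same library, minus its mean over 6 libraries. WT replicate 2 (blue square) is lowest for Mybpc3 and Tcap and highest for Nebl and Myoz2, and the groups overlap for all 9 genes.

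Other genes of the same structures were read from lists (0 genes of any list passed an adjusted p of 0.05 in edgeR, with 1.04% of all tested genes higher and 0.861% lower at an unadjusted p under 0.05). Of 26 further Z-disc genes 23 were tested, of which 8 had a log2 fold change above 0 and 15 below, with a median of -0.05, and 2 had an unadjusted p under 0.05, both lower. They were Pdlim7, which encodes a PDZ-LIM scaffold, and Nexn, which encodes the actin-binding protein nexilin. Pdlim7 was at 15.3, 17.4 and 12.0 CPM in WT and at 8.83, 11.7 and 11.5 CPM in Zeb2 cKO hearts (log2 fold change -0.48, unadjusted p = 0.034, adjusted p = 0.957). The log2 fold change of Pdlim7 was -0.35 with an unadjusted p of 0.069 without WT replicate 2, its highest library. Nexn was at 64.2, 63.2 and 73.5 CPM in WT and at 53.0, 55.0 and 54.5 CPM in Zeb2 cKO hearts (log2 fold change -0.31, unadjusted p = 0.035, adjusted p = 0.957). For both, all WT libraries lay above all Zeb2 cKO libraries. In all, 3 of the 23 further Z-disc genes and 2.97% of all tested genes showed that. Without WT replicate 2 the log2 fold change of Nexn was -0.34 (unadjusted p = 0.0090, adjusted p = 1.000). Myot, which encodes myotilin, was high in Zeb2 cKO replicates 1 and 3 (67.5 and 55.2 CPM) and at 20.3 CPM in replicate 2, against 16.8 to 29.5 CPM in WT (log2 fold change 1.01, adjusted p = 0.957, and 0.82 without WT replicate 2). WT replicate 2 was the lowest library for 10 of the 23 further Z-disc genes and the highest for 6, unlike for the 9 genes, where it was lowest for all.

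Of 12 M-band and obscurin genes, 10 lay above 0 and 2 below (median 0.10, 0 at an unadjusted p under 0.05), and WT replicate 2 was lowest for 10 of them. The smallest p values belonged to Trim55 (log2 fold change 0.29, and 0.15 without WT replicate 2) and Trim54 (0.27 and -0.02), which encode muscle RING-finger proteins, and to Fhl1 (-0.37 and -0.30), a LIM protein. Of 11 thick filament genes 8 were tested, 7 above 0 and 1 below (median 0.34). Mybpc2, the myosin-binding protein C of fast skeletal muscle, was at 19.4, 8.45 and 17.8 CPM in WT and at 37.0, 19.4 and 31.2 CPM in Zeb2 cKO hearts (log2 fold change 0.94, unadjusted p = 0.034, adjusted p = 0.957, and 0.66 with an unadjusted p of 0.031 without WT replicate 2), with groups that touch but do not overlap and 3.39% of all tested genes higher without overlap. Mybpc2 was also on the list of skeletal muscle markers, where Myh1, Myh2, Myh4 and Actn3 stayed near 0. Tnnt3, Tnni2 and Mylpf of that list had at most 21, 19 and 17 counts. Of its 3 tested genes, 2 were higher in Zeb2 cKO hearts without overlap. The light chains Myl7 and Myl4, which are typical of atrial muscle, were at 7.26 and 8.07 CPM in Zeb2 cKO replicate 2 and at most at 1.23 and 3.07 CPM in the other libraries (log2 fold changes 2.38 and 1.25, adjusted p = 0.957 each, and 1.87 and 1.09 without WT replicate 2).

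Of 13 thin filament genes 12 were tested, 10 above 0 and 2 below (median 0.20). Tpm2, a tropomyosin, was at 10.4, 9.57 and 9.77 CPM in WT and at 13.0, 11.5 and 12.2 CPM in Zeb2 cKO hearts, all of the latter higher (log2 fold change 0.30, unadjusted p = 0.028, adjusted p = 0.957, and 0.28 with an unadjusted p of 0.033 without WT replicate 2). Tmod1 (0.25) and Lmod3 (0.27), which cap and nucleate thin filaments at their pointed ends, had overlapping groups, and both were at 0.07 without WT replicate 2. Of 13 genes of sarcomere assembly and turnover, 11 lay above 0 and 2 below (median 0.10, 0 at an unadjusted p under 0.05). Smyd1, a methyltransferase that assists myosin folding, had a log2 fold change of 0.36, which was 0.07 without WT replicate 2. Klhl41, a kelch adaptor of ubiquitin ligases, was at 0.17 in both fits. Fbxo32, the ubiquitin ligase atrogin, had a log2 fold change of -0.20, and of -0.36 without WT replicate 2 (unadjusted p = 0.0050, adjusted p = 1.000). To set beside Fbxo32 and Nexn, 378 of the 14746 tested genes had an unadjusted p under 0.05 in the edgeR fit without WT replicate 2. In that fit the median of the list was -0.12 for the further Z-disc genes, -0.07 for the M-band, 0.11 for the thick filament, -0.06 for the thin filament and -0.04 for assembly and turnover.

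The lists of cell type markers depended on WT replicate 2 to different degrees. The 20 cardiomyocyte markers had a median log2 fold change of 0.18 with all libraries (17 above 0) and -0.06 without WT replicate 2 (6 above 0), close to the 0.12 and -0.11 of the 9 sarcomere genes. All 12 fibroblast markers lay below 0 (median -1.11) and 11 of 12 macrophage markers did (median -0.81), and without WT replicate 2 these medians were -0.005 and 0.02. Of 12 endothelial markers 7 lay above 0 (median 0.08), and 6 did without WT replicate 2 (median -0.01). Of 8 smooth muscle and pericyte markers 7 lay above 0 in both fits, with medians of 0.24 and 0.09. Of 10 skeletal muscle markers 3 were tested and of 8 adipocyte markers 3, all 6 above 0. Levels summed over the skeletal muscle list were 9.80 to 20.5 CPM in WT and 20.4 to 38.4 CPM in Zeb2 cKO hearts. Most of this was Mybpc2 alone, at 8.45 to 19.4 CPM in WT and 19.4 to 37.0 CPM in Zeb2 cKO hearts. The adipocyte list summed to 5.56 to 10.7 and 9.93 to 15.2 CPM. There Cidea had 226 to 704 counts and no other marker more than 83. All 6 tested markers of these lists stayed above 0 without WT replicate 2, and the medians went from 0.80 to 0.66 for the skeletal muscle and from 1.28 to 0.97 for the adipocyte markers.

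**Figure D5:**
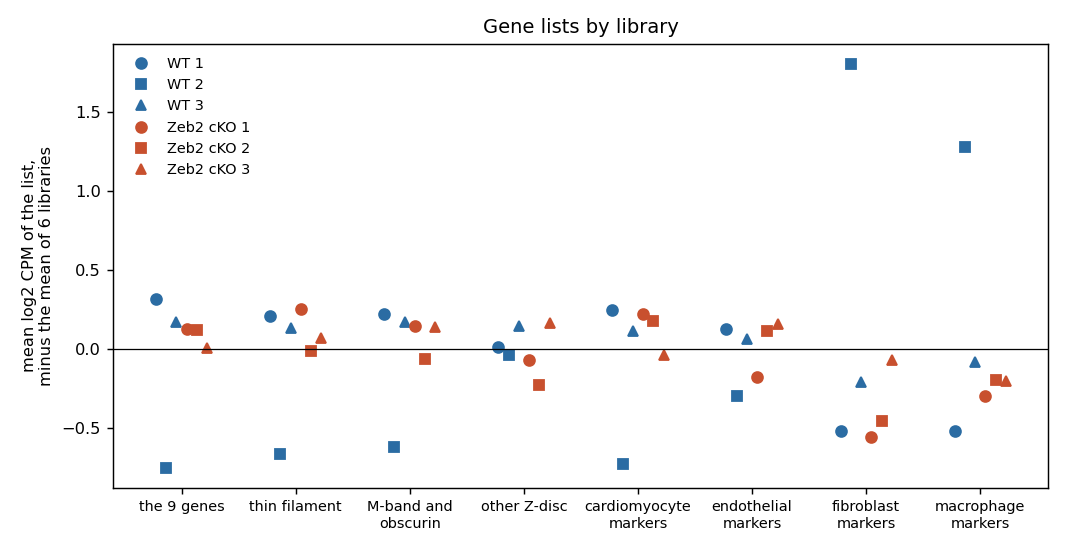
Mean log2 CPM of each gene list in each library, minus its mean over 6 libraries. In WT replicate 2 (blue squares) the 9 genes, the thin filament and M-band lists and the cardiomyocyte markers lie between -0.75 and -0.62, while the fibroblast and macrophage markers lie at 1.80 and 1.28. The further Z-disc genes lie at -0.04 and the endothelial markers at -0.30 in that library.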

How the data were processed

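RNA of 3 WT and 3 Zeb2 cKO hearts was measured as raw counts per gene, which the authors deposited after aligning strand-specific single-end reads of 75 bases, from libraries depleted of ribosomal RNA, to the Gencode M4 annotation (GRCm38) with the STAR workflow. The STAR version, strand option and treatment of multi-mapping reads were not given in the sources used here, and the authors' DESeq was not used. Libraries were assigned to groups by their labels.

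From these counts, libraries were scaled with TMM and tested with glmQLFit and glmQLFTest in edgeR 4.0.16 (R 4.3.3) after filterByExpr, with genotype as the factor, a prior count of 0.125 for fold changes and Benjamini-Hochberg adjustment over 14746 genes. Log2 CPM used a prior count of 2, and TPM used exon lengths of Gencode M21, in which 36345 of 38293 identifiers matched. Near-identical transcripts were searched with BLAST 2.17.0 (at least 75 bases at 95% identity). DESeq2 1.42.0, other scalings, filters, lengths and references, the replicate number as a block, a covariate of 12 macrophage markers and leaving out each library were alternatives. In a simulation of 14500 genes, 100 were given a log2 change of 1, 97 a log2 change of 2 and 14303 none. The numbers that passed in edgeR were 51, 96 and 9, in this order. Whether such recovery holds when a library stands apart, as WT replicate 2 does, was not tested. Depth made counting error small for the 9 genes, though not for every named gene, since Myl7 had 5 counts in WT replicate 2. The p-values of edgeR set each difference against the spread between hearts. The 9 genes and all lists were chosen with earlier results of these data known. Named were the 9 genes, Zeb2, Myh6, the 3 genes of each pathway list with the smallest p and the 5 genes most alike in pattern. Slc46a2 and the marker genes printed singly were chosen after their values were seen.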

Additional observations from a re-analysis of the deposited data

How the results depend on the processing

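None of the 9 genes was called, and the edgeR fit called 0 genes of the table, under RLE or upper quartile scaling, no filter, robust dispersions, without the mitochondrially encoded genes, with the macrophage covariate, with the replicate block or without any 1 library, with 247 to 600 genes at an unadjusted p under 0.05 where all libraries were kept and 122 (without Zeb2 cKO replicate 1) to 1134 (without WT replicate 1) with 1 left out. DESeq2 called 1 gene, Slc46a2, with 429 at an unadjusted p under 0.05. With the macrophage covariate the log2 fold changes turned below 0, to -0.070 for Ttn, -0.027 for Nebl, -0.14 for Mybpc3, -0.082 for Myom1, -0.20 for Myom2, -0.048 for Ldb3, -0.081 for Myoz2 and -0.024 for Tcap. Replicate numbers 1, 2 and 3 occur in both groups but did not pair the libraries (correlation of deviations 0.088, -0.137 and -0.087 for the same number), and with the replicate block 0 genes were called, the median of the 9 was 0.17 and Actn2 was at 0.014. With each library left out in turn the log2 fold change of Ttn ran from -0.11 to 0.29, of Nebl from -0.062 to 0.27, of Mybpc3 from -0.22 to 0.48, of Myom1 from -0.13 to 0.30, of Myom2 from -0.28 to 0.38, of Actn2 from -0.29 to 0.14, of Ldb3 from -0.089 to 0.30, of Myoz2 from -0.10 to 0.11 and of Tcap from -0.092 to 0.75, and the median of the 9 from -0.11 to 0.29. The lowest value came without WT replicate 2 for 9 of 9 genes, and the 0.75 of Tcap came without WT replicate 1. Actn2 turned above 0 without WT replicate 1, WT replicate 3 or Zeb2 cKO replicate 2, Myom2 turned below 0 also without Zeb2 cKO replicate 2, and Myoz2 without Zeb2 cKO replicate 1 or 2. With the coding length 3 of 9 ranks of the abundance order were kept. With the median of the cardiomyocyte markers as reference, 5 genes turned above 0, Ttn to 0.12, Nebl to 0.093, Myom1 to 0.10, Myom2 to 0.081 and Ldb3 to 0.14, and the groups overlapped for all 9. Actn2 went from -0.22 to -0.047, Myoz2 from -0.20 to -0.026, Mybpc3 from 0.040 to 0.22 and Tcap from 0.15 to 0.33. Leaving out 1 library gave 0 to 3 genes without overlap on that relative scale: Nebl, Myoz2 and Tcap without WT replicate 1, Myoz2 without Zeb2 cKO replicate 2, and Myom1, Actn2 and Ldb3 without Zeb2 cKO replicate 3, where 15%, 5.57% and 19.4% of all tested genes did not overlap either. The relative differences then ran from -0.098 to 0.0036 for Ttn, -0.19 to -0.0038 for Nebl, -0.39 to -0.13 for Actn2, -0.30 to -0.045 for Myoz2, -0.15 to 0.19 for Mybpc3, -0.23 to 0.020 for Myom1, -0.25 to 0.067 for Myom2, -0.14 to 0.035 for Ldb3 and -0.013 to 0.39 for Tcap, and the log2 ratio of Myom2 to Myom1 from -0.27 to 0.18, above 0 without WT replicate 1 or Zeb2 cKO replicate 1 or 3. Apart from what a setting leaves out by its own construction, the cause was not tested.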
